A study of Homo sapiens with 6 samples.

Results

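The genes described here encode the MICOS complex of the mitochondrial inner membrane and the proteins it works with: the 7 subunits MICOS10, MICOS13, IMMT, CHCHD3, CHCHD6, APOO and APOOL, the fusion protein OPA1, and the outer membrane proteins SAMM50 and MTX1. They were picked by current gene symbol from the rows of the authors' deposited table, and all 10 were found among its 19589 features. The fold changes of this comparison were known when the 10 genes were put together, so their values and adjusted p-values are given as a description.

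The study measured RNA in libraries labelled HepG2, the name of a hepatocellular carcinoma line. Its cells were transfected with a small interfering RNA (siRNA) that targets the long non-coding RNA HOTAIR (siHOTAIR) or with a control siRNA (siNC). All libraries were made from total RNA depleted of ribosomal RNA, with a kit that keeps strand, and the labels describe 3 libraries per group. The labels state neither the sequence and dose of the siRNAs nor the time of harvest. Nor do they say whether a group's libraries stem from separate cultures, and p-values here therefore measure the spread between libraries that may be technical repeats.

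The means of the authors' deposited table were sums of whole reads from 5 libraries, 3 siHOTAIR and 2 siNC, and which labelled siNC library they leave out is unknown. Reads per library were recovered from these means, fold changes and standard errors for 12292 features, all 10 genes among them, with 4096790 to 5450298 recovered reads a library. Values per library below are these reads divided by the authors' size factors (normalized counts), and the library numbers are names only. For HOTAIR these were 202 and 150 in siNC against 62.4, 78.2 and 59.7 in siHOTAIR, so the groups did not overlap. Markers of hepatocytes and of HepG2 were nearly absent: of 16 listed, 10 had a row and 8 of these had a mean under 1 in the authors' deposited table. The keratin gene KRT7 had a mean of 11514 in the authors' deposited table, and the name HepG2 is used here only as the libraries' label.

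Mitochondrial cristae are folds of the inner membrane that hold the respiratory chain, and MICOS sits at the narrow necks, the crista junctions, where these folds join the rest of the inner membrane. One arm of the complex, built on MICOS10 (also called MIC10) with MICOS13, APOO and APOOL, bends the membrane, and the other, built on IMMT (also called MIC60 or mitofilin) with CHCHD3 and CHCHD6, makes contact with the sorting and assembly machinery of the outer membrane through SAMM50 and the metaxins. OPA1, a dynamin-like GTPase, fuses inner membranes and shapes cristae together with MICOS. In yeast and in human cells, loss of the core subunits is known to detach cristae from the inner boundary membrane.

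Of the 10 genes, 7 fell, 0 rose and 3 were not called at an adjusted p under 0.05 in the authors' deposited table. Over all 14597 features tested there, 40.4% were called, 20.4% as fallen and 20.0% as risen. Among the 6901 features with means as high as those of these genes (132 to 1147 normalized counts), 51.6% were called and 27.1% fell. The median log2 fold change of the 10 genes was -0.37, beside 0.01 over all features tested and -0.01 over the features in the same range of means, all from the authors' deposited table. The 7 that fell were MICOS10, APOOL, APOO, CHCHD3, OPA1, MTX1 and IMMT, and apart from MICOS10 each of them changed by less than 2-fold. In bulk RNA, fewer cells that make a transcript and less of it per cell cannot be told apart.

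**Figure D1:**
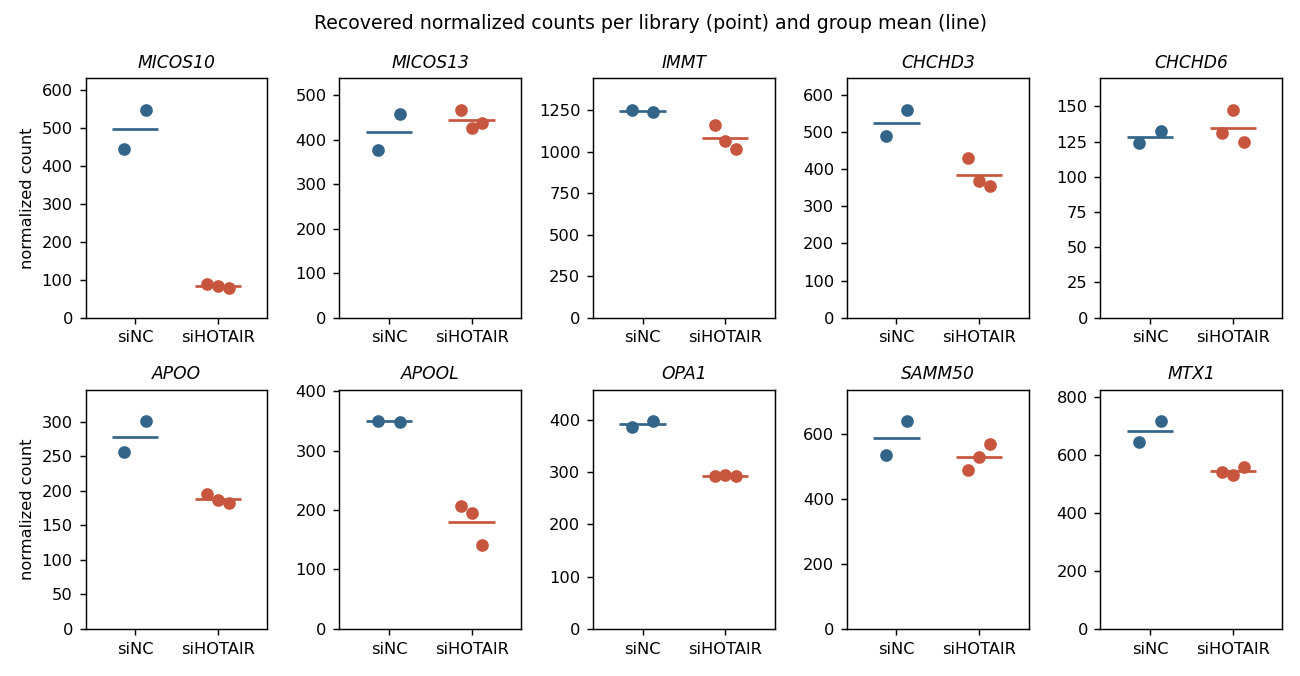
Normalized counts recovered for each of the 10 genes, 1 panel per gene with its own axis from 0, for 2 siNC libraries (blue points) and 3 siHOTAIR libraries (red points); lines are group means. MICOS10 lies at 445 and 549 in siNC and at 78.9 to 88.4 in siHOTAIR, while the groups of MICOS13, CHCHD6 and SAMM50 overlap.

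MICOS10, the small membrane protein whose oligomers curve the inner membrane at crista junctions, had 445 and 549 normalized counts in siNC and 88.4, 83.5 and 78.9 in siHOTAIR. These stand for 532 and 490 reads in siNC and 102, 78 and 70 in siHOTAIR. Both siNC libraries lay far above all 3 siHOTAIR libraries, and the siHOTAIR libraries were close to each other. The group means were 497 ± 73.3 (SD, n = 2) and 83.6 ± 4.75 (SD, n = 3), so the siHOTAIR level was 16.8% of the siNC level. The authors' deposited table gives a log2 fold change of -2.52 (adjusted p = 3.02e-61, SE 0.149), a 5.75-fold lower level. By that value MICOS10 was the 7th lowest of the 14597 features tested, and 0.0480% of them were as low or lower. Only 3.51% of the features tested fell by 2-fold or more, and MICOS10 was the only one of the 10 genes in the authors' own filtered list.

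APOOL (MIC27), a cardiolipin-binding subunit of the same arm, had the next largest fall. It had 350 and 348 normalized counts in siNC and 206, 195 and 141 in siHOTAIR, with means of 349 ± 1.07 (SD, n = 2) and 181 ± 34.9 (SD, n = 3). The siNC libraries were almost equal, the third siHOTAIR library was the lowest, and the groups did not overlap. Its log2 fold change in the authors' deposited table was -0.93 (adjusted p = 1.11e-09, SE 0.143), a 1.90-fold lower level.

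APOO (MIC26), a close relative of APOOL, had 256 and 301 normalized counts in siNC and 195, 187 and 182 in siHOTAIR. The 3 siHOTAIR libraries lay within a narrow span below both siNC libraries, and their mean was 67.5% of the siNC mean. The authors' deposited table has a log2 fold change of -0.55 (adjusted p = 2.69e-04, SE 0.136) for it.

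MICOS13 (MIC13 or QIL1), which bridges the MICOS10 arm and the IMMT arm, did not share in this. It had 378 and 458 normalized counts in siNC and 468, 426 and 437 in siHOTAIR, and the groups overlapped. With a log2 fold change of 0.09 (adjusted p = 0.547, SE 0.111) in the authors' deposited table, it was not called in either direction. In the MICOS10 arm, then, 3 of 4 genes fell, and of the 7 subunits of both arms 5 fell. Over all features tested 20.4% fell, and 27.1% of those in the same range of means did.

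IMMT, the large organising subunit of the other arm, had 1253 and 1239 normalized counts in siNC and 1162, 1062 and 1017 in siHOTAIR. The groups did not overlap, but the highest siHOTAIR library was only 6.25% under the lowest siNC library. The siHOTAIR mean was 86.7% of the siNC mean, and the authors' deposited table gives a log2 fold change of -0.20 (adjusted p = 0.0305, SE 0.0803), the least certain fall of the 7.

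CHCHD3 (MIC19), a peripheral subunit with a twin CX9C fold that ties IMMT to SAMM50, had 490 and 561 normalized counts in siNC and 430, 368 and 355 in siHOTAIR. All siHOTAIR libraries were below both siNC libraries, with the first siHOTAIR library the nearest to them. Its log2 fold change was -0.44 (adjusted p = 4.55e-04, SE 0.113) in the authors' deposited table, and the siHOTAIR mean was 73.1% of the siNC mean.

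CHCHD6 (MIC25), the paralogue of CHCHD3, had the lowest mean of the 10 genes, 132 in the authors' deposited table. It had 124 and 132 normalized counts in siNC and 131, 148 and 125 in siHOTAIR, which overlapped. Its log2 fold change in the authors' deposited table, 0.07 (adjusted p = 0.784, SE 0.170), was not called, so the paralogues CHCHD3 and CHCHD6 stood on different sides of the threshold. Whether their fold changes differ from each other was not tested.

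OPA1 had 387 and 398 normalized counts in siNC and 293, 294 and 292 in siHOTAIR. The libraries within each group were nearly equal and the groups were well apart, with means of 392 ± 7.74 (SD, n = 2) and 293 ± 1.33 (SD, n = 3). The siHOTAIR mean was 74.7% of the siNC mean, and the log2 fold change in the authors' deposited table was -0.42 (adjusted p = 9.65e-04, SE 0.113).

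On the outer membrane, SAMM50, the channel that inserts beta-barrel proteins, had 534 and 639 normalized counts in siNC and 489, 529 and 567 in siHOTAIR. The groups overlapped through the third siHOTAIR library, which lay above the first siNC library, and the log2 fold change of -0.15 (adjusted p = 0.277, SE 0.105) in the authors' deposited table was not called. MTX1, a metaxin of the same machinery, had 645 and 717 normalized counts in siNC and 540, 531 and 559 in siHOTAIR. All 3 siHOTAIR libraries were below both siNC libraries. The authors' deposited table gives a log2 fold change of -0.32 (adjusted p = 0.00248, SE 0.0943) for MTX1.

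Counted by library, 7 of the 10 genes had every siHOTAIR library below both siNC libraries, and they were the same 7 that fell. The order comes from the same libraries as those calls and is not separate support for them. Over all 12292 features with recovered reads, 34.2% had this order, and 36.6% of the 6887 in the same range of means did. The first siNC library was below the second in 8 of the 10 genes, by most in SAMM50, MICOS10 and MICOS13 on the linear scale, so the siNC mean of those genes rests on 2 libraries that differ. The third siHOTAIR library was the lowest of its group in 7 of the 10 genes.

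**Figure D2:**
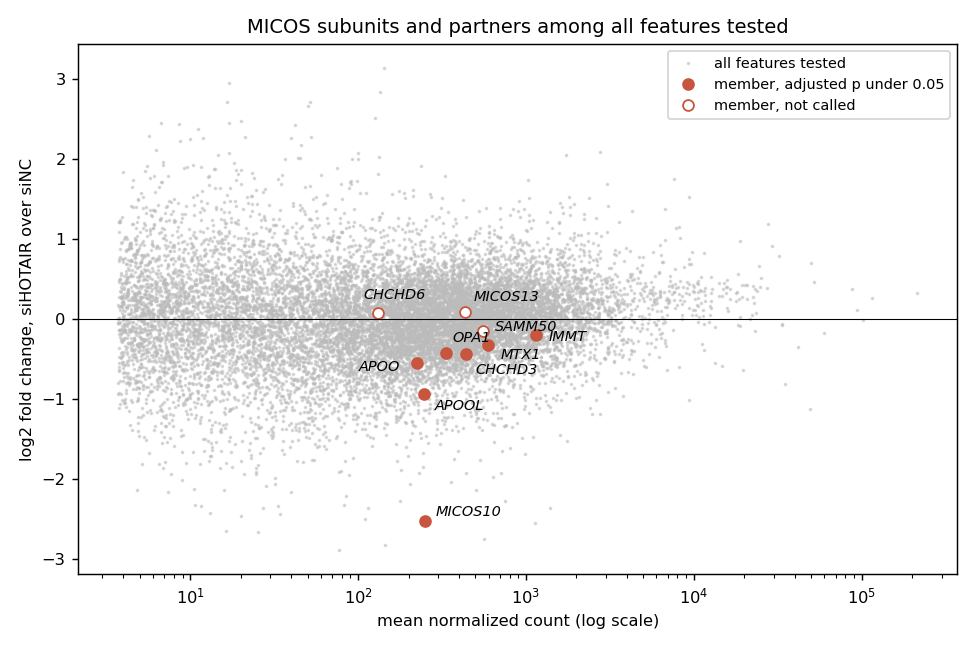
Log2 fold change (siHOTAIR over siNC) against mean normalized count (log axis) in the authors' deposited table, for all 14597 features tested (grey) and the 10 genes (red; filled where the adjusted p was under 0.05). MICOS10 at -2.52 lies at the lower edge of the cloud, APOOL at -0.93 lies below most features, and the others lie between -0.55 and 0.09.

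A second fit was run with limma on log2 of the normalized counts plus 1 over the 12292 features with recovered reads, with Benjamini-Hochberg adjustment over all of them. It called 50.7% of these features, 26.6% as lower in siHOTAIR, and the same 7 of the 10 genes. The reads were recovered from the authors' own means, fold changes and standard errors. Similar calls were therefore largely built in and are not separate support. MICOS10 had a log2 difference of -2.55 (SE 0.127, limma adjusted p = 3.03e-22) and APOOL one of -0.97 (SE 0.123, limma adjusted p = 5.56e-09).

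Leaving out each of the 5 libraries in turn, MICOS10 had limma differences of -2.70 to -2.40, APOOL of -1.07 to -0.80, APOO of -0.68 to -0.44, CHCHD3 of -0.55 to -0.35 and OPA1 of -0.44 to -0.40, and these 5 genes were called by limma in all 5 fits. The call of IMMT was the least stable: its difference stayed between -0.26 and -0.17, but limma called it in only 1 of the 5 fits, the one without the first siHOTAIR library. MTX1 was called by limma in 4 of 5 and missed the threshold without the second siNC library, where its difference was -0.25 (limma adjusted p = 0.0678). SAMM50 passed in 1 fit, without the first siNC library, where its difference was -0.28 (limma adjusted p = 0.0476). MICOS13 and CHCHD6 were called in 0 of the 5 fits. Fits without 1 siNC library keep a single siNC library and take its spread to be like that of the siHOTAIR group. In all these fits limma also draws each gene's spread towards the trend over all features. The calls therefore rest only in part on the spread of the gene itself.

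**Figure D3:**
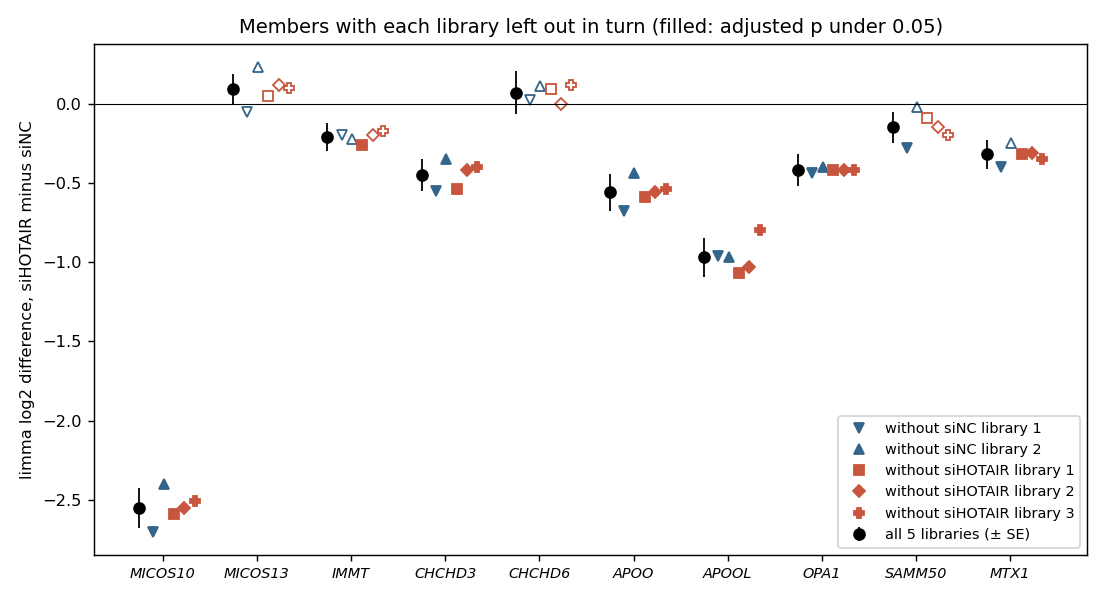
Log2 difference (siHOTAIR minus siNC) of each of the 10 genes in limma, with all 5 libraries (black, ± SE) and with each library left out in turn (coloured symbols; filled where the limma adjusted p was under 0.05). MICOS10 stays between -2.70 and -2.40 and APOOL between -1.07 and -0.80, while IMMT is filled in 1 of 5, SAMM50 in 1 of 5 and MTX1 in 4 of 5.

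To compare levels between genes, normalized counts were divided by the length of each gene's exons in GENCODE 29, in kb, counting every annotated exon base once. The isoforms in use are unknown, and APOOL, OPA1 and MICOS10 have long annotated exons (6.55, 7.18 and 3.98 kb), so their levels per kb are too low if shorter forms dominate. In siNC, MTX1 (417 normalized counts per kb) and IMMT (404) were the highest, with overlapping libraries. Then came SAMM50 (342), CHCHD3 (326), MICOS13 (280) and APOO (249) per kb, each overlapping its neighbour in this order. Clearly below them were MICOS10 (125), CHCHD6 (92.1), OPA1 (54.6) and APOOL (53.3) per kb. OPA1 and APOOL were nearly equal (SDs of 1.08 and 0.163, n = 2), and 2 libraries are too few to rank them.

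In siHOTAIR, IMMT (351 normalized counts per kb), MTX1 (333), SAMM50 (308) and MICOS13 (297) were the highest, each overlapping the next. CHCHD3 followed at 238 per kb and APOO at 168, without overlap. CHCHD6 (96.7), OPA1 (40.8), APOOL (27.6) and MICOS10 (21.0) per kb were the lowest. MICOS10 went from 7th of the 10 genes in siNC to 10th in siHOTAIR, where its libraries (19.8 to 22.2 per kb) overlapped those of APOOL (21.5 to 31.5).

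Shares within a library do not depend on how libraries are scaled. MICOS10 made up 7.74% and 8.55% of the summed levels per kb of the 7 MICOS subunits in the siNC libraries, and 1.74%, 1.77% and 1.74% in the siHOTAIR libraries. APOOL made up 3.69% and 3.30% of that sum in siNC and 2.46%, 2.52% and 1.89% in siHOTAIR. MICOS13 took 17.5% and 19.0% in siNC and 24.5%, 24.1% and 25.7% in siHOTAIR, and CHCHD6 took 6.16% and 5.89%, then 7.35%, 8.98% and 7.90%. The groups did not overlap in any of these 4 shares, and in each library the shares sum to the whole, so a lower share of one subunit raises those of others. CHCHD3 held 21.0% and 21.6% in siNC and 20.8%, 19.3% and 19.3% in siHOTAIR, also apart but by little. APOO held 15.8% and 16.7% in siNC and 13.6%, 14.2% and 14.4% in siHOTAIR. IMMT held 28.1% and 24.9% in siNC and at most 29.5% in siHOTAIR, where each library lay above both siNC libraries. Its share was higher in siHOTAIR although its level was lower. The groups were thus apart in the shares of all 7 subunits, but shares that sum to the whole are not 7 separate results. How often this occurs in other gene sets was not counted, and the shares were added after the data were seen. The sum itself was 1447 and 1613 normalized counts per kb in siNC and 1279, 1183 and 1137 in siHOTAIR. Without MICOS10 it was 1335 and 1475 in siNC and 1257, 1162 and 1117 in siHOTAIR, which did not overlap either.

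The 3' UTRs of these genes were searched for the words AGAGAGA and AAGAGAG, which an earlier look at the same fold changes had picked out, so nothing about the fold changes is drawn from them here. In the longest 3' UTR annotated for each gene in GENCODE 29 (GRCh38), read on the transcript strand, MICOS10, APOOL and CHCHD3 hold both words and the other 7 genes hold neither. In APOOL and CHCHD3 the words overlap as AAGAGAGA, and in MICOS10 they are apart. The 4 places are shown because they are what sets these 3 genes apart from the other 7 in this search. Capitals mark the words, and each stretch is 30 bases of the 3' UTR, 5′ to 3′:
MICOS10 first word, chr1:19627503-19627532, plus strand: ttttaatggagAAGAGAGgtgtaggcaaag
MICOS10 second word, chr1:19628740-19628769, plus strand: ctcattcaggcAGAGAGAagaataacatgc
APOOL, chrX:85091609-85091638, plus strand: ctctactaggaAAGAGAGAaacatagaaat
CHCHD3, chr7:132785504-132785533, minus strand: gaagaccactaAAGAGAGAcatcaagaatg

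In MICOS10 the words begin at bases 1113 and 2350 of a 3' UTR of 3420 bases, in APOOL at base 3942 of 5638, and in CHCHD3 at base 115 of 769. Long 3' UTRs hold such words often. The shares that follow are of genes with either word, and the share with both was not counted. Of the 12693 tested genes with an annotated 3' UTR of at least 30 bases, 25.9% held either word, with 59.4% among the 2665 genes whose 3' UTR has at least 3000 bases and 17.1% among the 10028 with a shorter one. OPA1, with 3223 bases, holds neither word, as do APOO (289 bases), MTX1 (126 bases) and IMMT (336 bases). MICOS13, CHCHD6 and SAMM50, with 391, 316 and 150 bases, hold neither as well. A match is a run of letters in the annotation and was not tested as a binding site.

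Some of these genes share sequence or position with others. MICOS10 has the pseudogene MICOS10P1, which had a mean of 14.6 normalized counts and a log2 fold change of -0.20 (adjusted p = 0.753) in the authors' deposited table. Its neighbour NBL1, with which it forms a readthrough transcript, went the other way, with a mean of 114 and a log2 fold change of 0.49 (adjusted p = 0.0249) in the authors' deposited table. RPS14P3, a ribosomal protein pseudogene that overlaps MICOS10 in RefSeq GRCh38.p14, had a mean of 30.8 and was not called in the authors' deposited table. MIR4779, SATL1 and OPA1-AS1, which overlap IMMT, APOOL and OPA1, each had a mean under 1 there. MTX1 overlaps THBS3, with a mean of 788 and a log2 fold change of 0.21 (adjusted p = 0.0529), and GBA1LP, with 126 and -1.33 (adjusted p = 2.47e-12), both from the authors' deposited table. How reads in shared stretches were assigned, and whether counting used the strand, are not stated in the labels, so the values of MICOS10 and MTX1 are uncertain to that extent.

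Over the 5 libraries, the features whose log2 (normalized count + 1), centred per gene, lay closest to MICOS10 by Euclidean distance were CBX5 (0.273), STEAP4 (0.302), UHMK1 (0.377), MR1 (0.429) and TRAK2 (0.432). TRAK2, an adaptor that links mitochondria to kinesin motors, had 321 and 369 normalized counts in siNC and 85.8, 56.7 and 60.8 in siHOTAIR. CBX5, which encodes the heterochromatin protein HP1 alpha, had 2304 and 2184 in siNC and 405, 370 and 370 in siHOTAIR. The likeness rests on 5 values per gene that are split mainly by group.

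Beyond the 10 genes, other genes of the same membranes were counted in lists. Over all features tested, 20.4% fell and 20.0% rose in the authors' deposited table, and no list was tested against these shares. Of 6 outer membrane partners (MTX2, MTX3, DNAJC11 and VDAC1 to VDAC3), 4 fell, 0 rose and 2 were not called, with a median log2 fold change of -0.28 in the authors' deposited table. DNAJC11, which joins the bridge between MICOS and the outer membrane machinery, had 858 and 832 normalized counts in siNC and 633, 631 and 678 in siHOTAIR. The authors' deposited table gives it a log2 fold change of -0.38 (adjusted p = 6e-05). The metaxins followed MTX1 in direction: MTX2 had 281 and 282 in siNC and 223, 232 and 219 in siHOTAIR. MTX3 had 271 and 264 in siNC and 217, 197 and 201 in siHOTAIR. The authors' deposited table puts them at -0.32 (adjusted p = 0.0295) and -0.38 (adjusted p = 0.0128) on the log2 scale, so all 3 metaxins fell. VDAC2, a pore of the outer membrane, fell by 0.24 on the log2 scale (adjusted p = 0.00997) in the authors' deposited table.

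Of 6 fusion genes, 5 fell and 1 rose, with a median log2 fold change of -0.48 in the authors' deposited table. MFN2, an outer membrane GTPase that works upstream of OPA1 in fusion, had 2080 and 2055 normalized counts in siNC and 1327, 1379 and 1435 in siHOTAIR. Its log2 fold change in the authors' deposited table was -0.58 (adjusted p = 2.68e-15). MFN1, its relative, had 216 and 218 in siNC and 160, 150 and 154 in siHOTAIR (-0.48 on the log2 scale, adjusted p = 0.00371, in the authors' deposited table). SLC25A46, an outer membrane protein reported to bind MICOS, had 263 and 267 in siNC and 189, 182 and 193 in siHOTAIR. MIGA1, which acts with the mitofusins, had 281 and 287 in siNC and 220, 184 and 199 in siHOTAIR. Both had a log2 fold change of -0.49 (adjusted p = 0.00113) in the authors' deposited table. The 1 that rose was PLD6, a phospholipase of the outer membrane, at 57.8 and 59.4 in siNC against 87.5, 91.0 and 76.6 in siHOTAIR (0.52 on the log2 scale, adjusted p = 0.0468, in the authors' deposited table). The groups overlapped in none of the 5 genes just named, which were named for their calls. Over all 12292 features with recovered reads, 34.2% had every siHOTAIR library below both siNC libraries, and the opposite order was not counted.

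**Figure D4:**
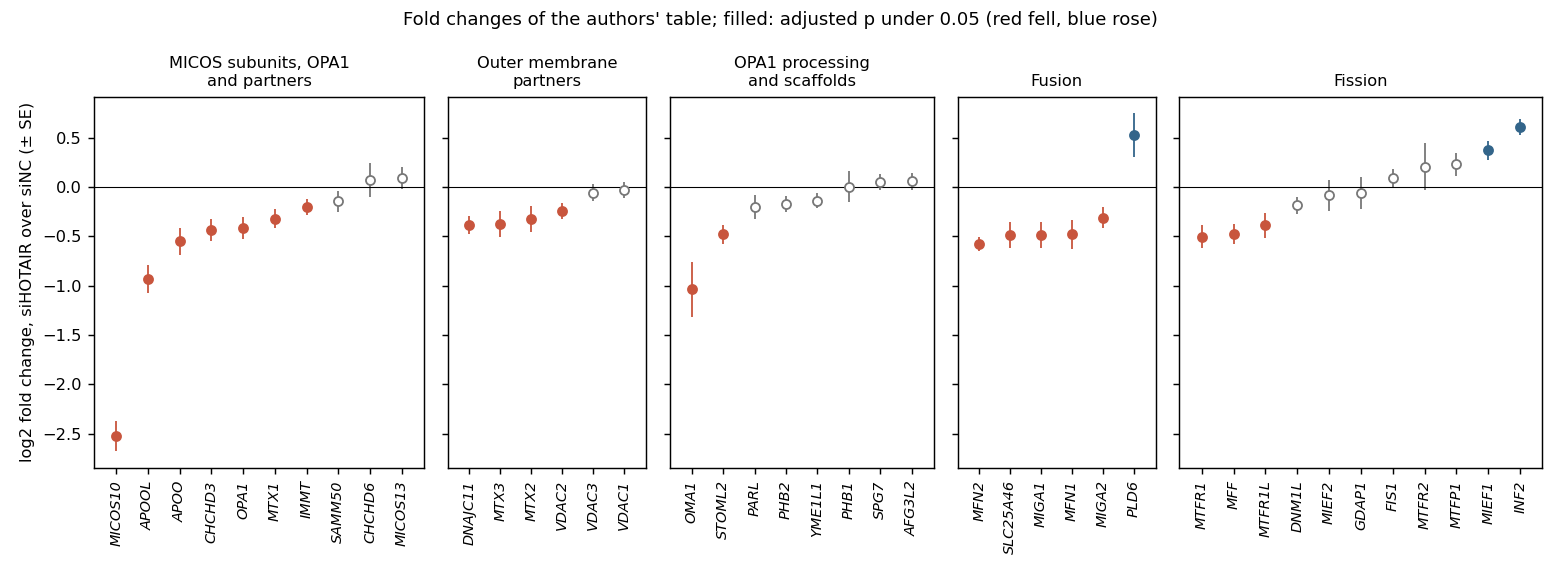
Log2 fold change (siHOTAIR over siNC, ± SE) from the authors' deposited table for the 10 genes and 4 related lists, 1 point per gene, filled where the adjusted p was under 0.05 (red fell, blue rose). MICOS10 at -2.52 is the lowest point in the plot, 5 of 6 fusion genes lie at or below -0.31, and the fission genes lie on both sides of 0.

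Among 8 genes for OPA1 processing and inner membrane scaffolds, 2 fell, 0 rose and 6 were not called in the authors' deposited table (median -0.16). OMA1, the stress-activated protease that cleaves OPA1, was sparse, with 60.3 and 66.1 normalized counts in siNC and 33.8, 27.8 and 25.9 in siHOTAIR. STOML2, a scaffold that binds cardiolipin-rich membrane, had 758 and 928 in siNC and 586, 597 and 621 in siHOTAIR. The authors' deposited table puts OMA1 at -1.04 (adjusted p = 8.67e-04) and STOML2 at -0.48 (adjusted p = 8.24e-06) on the log2 scale. YME1L1, the other OPA1 protease, was among those not called.

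The 11 fission genes included 2 that rose, 3 that fell and 6 not called in the authors' deposited table (median -0.06). MFF, an adaptor for the fission GTPase DNM1L, had 674 and 753 normalized counts in siNC and 547, 531 and 451 in siHOTAIR (-0.48 on the log2 scale, adjusted p = 2.48e-05, in the authors' deposited table). MTFR1 fell by 0.50 (adjusted p = 1.37e-04) while MIEF1, another DNM1L receptor, rose by 0.37 (adjusted p = 5.14e-04) and INF2, an actin-nucleating formin, by 0.61 (adjusted p = 1.18e-12), all on the log2 scale in the authors' deposited table. DNM1L itself was not called.

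The import pathways on which MICOS subunits depend were counted beside the same shares of all features tested, 20.4% fallen and 20.0% risen. The disulfide relay and other CHCHD genes had 0 that rose, 3 that fell and 4 not called of 7 tested, with a median of 0.01 in the authors' deposited table. CHCHD4 (MIA40), which oxidises incoming proteins with the twin CX9C fold, had 129 and 160 normalized counts in siNC and 107, 91.0 and 74.4 in siHOTAIR. The authors' deposited table gives CHCHD4 a log2 fold change of -0.64 (adjusted p = 0.00320), its import partner AIFM1 -0.39 (adjusted p = 7.93e-05) and CHCHD5 -0.38 (adjusted p = 0.0365). Of 8 genes of the TOM complex, the outer membrane import pore, 2 rose, 1 fell and 5 were not called (median 0.07 in the authors' deposited table). The receptor gene TOMM22 rose most, from 159 and 202 normalized counts in siNC to 454, 394 and 393 in siHOTAIR (1.20 on the log2 scale, adjusted p = 7.77e-18, in the authors' deposited table). TOMM20 rose by 0.50 (adjusted p = 4.91e-11) and TOMM40L fell by 0.60 (adjusted p = 1.47e-04), both on the log2 scale in the authors' deposited table.

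The inner membrane translocases and import motor were counted over 16 genes, of which 3 rose, 1 fell and 12 were not called, with a median of 0.04 in the authors' deposited table. The one that fell, TIMM17B, had 692 and 868 normalized counts in siNC and 435, 419 and 383 in siHOTAIR (-0.91 on the log2 scale, adjusted p = 3.61e-15, in the authors' deposited table). Its paralogue TIMM17A rose by 0.32 (adjusted p = 0.00599), TIMM13 by 0.44 (adjusted p = 1.7e-04) and TIMM44 by 0.25 (adjusted p = 0.0405) on the log2 scale in the authors' deposited table.

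Some markers of other cells also moved with the groups. Of 8 fibroblast markers, 7 had a row and 3 rose in the authors' deposited table (COL1A1, PDGFRB and DCN). COL3A1 (-0.07), ACTA2 (-0.47) and THY1 (0.71) were not called there and LUM (0.47) was not tested, all on the log2 scale. The 6 fibroblast markers with recovered reads, of which COL1A1 makes up most, summed to 1277 to 1284 normalized counts in siNC and 2174 to 2564 in siHOTAIR. Of 6 endothelial markers, 5 had a row and 2 rose in the authors' deposited table (ENG and VWF). PECAM1 (-0.16) and CDH5 (0.47) were not called there and TEK (0.36) was not tested, all on the log2 scale. Reads were recovered for only 2 of the endothelial rows, nearly all of them from ENG. They summed to 1272 to 1384 in siNC and 1912 to 1946 in siHOTAIR, while VWF was sparse with a mean of 5.38 in the authors' deposited table. Leukocyte markers numbered 6, of which 3 had a row and CD68 alone fell, from 177 and 197 normalized counts in siNC to 143, 140 and 117 in siHOTAIR. The other leukocyte rows, CD14 (-0.05) and LYZ (0.93, both on the log2 scale in the authors' deposited table), were not called. Of 8 other epithelial markers, 6 had a row and KRT17 and NKX2-1 fell in the authors' deposited table. KRT7 (-0.06) and SFTPC (0.95, both on the log2 scale) were not called there, and KRT14 and TP63 were not tested. The part of these marker changes in the values of the MICOS genes was not tested.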

How the data were processed

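The members and gene lists were chosen with earlier results of these data known. In the submitters' processing notes the authors name HTSeq 0.6.1, DESeq, DESeq2 and hg19. Not given in the sources used here were aligner, annotation and strand setting. The authors deposited a signal per feature, its mean normalized count over libraries. Log2 fold changes, standard errors, the score (fold change over standard error) and the p-values with their Benjamini-Hochberg adjusted values are the authors', as deposited, per the file headers. The files hold 0 columns of single libraries, so the planned edgeR test was not run and the authors' test was used, with a threshold of 0.05. Symbols came from RefSeq GRCh38.p14 by gene ID or accession (19494 features matched, 95 not).

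Reads per library were recovered for features with means of 10 to 2000. Whole reads in 5 libraries had to give the deposited mean and, in a negative binomial model with the prior variance of the table (0.711), the deposited fold change within 2e-07 and its standard error. Exactly 1 combination of reads met this for 12292 of 12324 features (99.7%), and the procedure was tested on simulated data. Within the range searched, the mean alone left 1 candidate for 10394 of them, 9 of the 10 members included. For the rest the fold change and standard error chose among several (14 for IMMT, 2 for CBX5, 6 for STEAP4, 15 for PRELID3B, 19 for PPRC1, 52 for MFN2, and in the marker sums 43 for ENG and 79 for COL1A1). A library was placed in siHOTAIR or siNC by the sign of the deposited fold change of features with a single read in it, not by the level of any named gene, and is numbered by falling size factor (siNC 1.19 and 0.893, siHOTAIR 1.15, 0.934 and 0.888). Recovered reads summed to 5450298 and 4145353 in siNC and to 5354331, 4320599 and 4096790 in siHOTAIR. limma 3.58.1 (R 4.3.3, mean trend, two-sided) was run on log2 (normalized count + 1). Alternatives were other thresholds, adjustment over all features, the authors' second table, pseudocounts of 0.5 and 5, limma-voom, each library left out, and, added after seeing the data, scaling by total reads or by the upper quartile. Subunit shares were also added then.

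Named genes were the 10 members, HOTAIR, near copies, overlapping genes, the called genes of each list (the 4 with the smallest adjusted p where more were called), and the 5 features most like MICOS10. YME1L1, DNM1L, PLD6, KRT7 and the single cell type markers were named after their values were seen.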

Additional observations from a re-analysis of the deposited data

How the results depend on the processing

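No paired analysis was possible because the recovered libraries carry no replicate number. The planned edgeR and DESeq2 fits need counts for every feature and were not run. Under the authors' own list rule (adjusted p under 0.001 and at least 2-fold), 673 features and 1 of the 10 genes, MICOS10, remained called, in place of 5900 and 7. With 1 library left out, the limma log2 difference of MICOS13 ranged from -0.05 (without siNC library 1) to 0.23 and that of CHCHD6 from -0.00 (without siHOTAIR library 2) to 0.12, so both changed sign, and neither was called in any of these fits. limma called 5011 to 5992 features and 5 to 7 of the 10 genes with 1 library left out. IMMT lost its limma call without siNC library 1 (adjusted p = 0.119), siNC library 2 (0.0884), siHOTAIR library 2 (0.151) or siHOTAIR library 3 (0.128), and with libraries scaled by the upper quartile (-0.18, adjusted p = 0.0665). For the single genes, 111 of the alternative values that have a test kept their direction and their side of the threshold, 6 lost the call, 1 gained it and 2 reversed. The limma-voom value of each gene entered these counts more than once, so they overstate the number of separate alternatives. Among features with few reads depth limits what can be seen, but each of the 10 genes had at least 70 reads in every library.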

Other observations

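Lipid and nuclear genes that bear on the inner membrane were also counted, with all fold changes from the authors' deposited table. Of 11 genes for synthesis, transport and remodelling of cardiolipin, the phospholipid of cristae, 3 rose, 1 fell and 7 were not called (median 0.11 in the authors' deposited table, beside 0.01 over all features tested). PRELID3B, which carries phosphatidylserine between the mitochondrial membranes, had 764 and 810 normalized counts in siNC and 1461, 1350 and 1256 in siHOTAIR, a log2 fold change of 0.78 (adjusted p = 1.52e-18) in the authors' deposited table. PRELID1, which carries phosphatidic acid for cardiolipin synthesis, rose by 0.29 on the log2 scale, while its partner TRIAP1 had -0.45 (adjusted p = 0.00217) in the authors' deposited table. PNPLA8, a phospholipase, had 0.35 (adjusted p = 0.0215) in the authors' deposited table. Of 5 ATP synthase subunits that hold the enzyme's dimers together at crista ridges, 0 were called and 0 had an unadjusted p under 0.05 in the authors' deposited table (median 0.21). limma called 2 of the 4 that had recovered reads, both higher in siHOTAIR, although the groups overlapped in all 4.

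Of 9 regulators of mitochondrial biogenesis, 4 rose, 2 fell and 3 were not called in the authors' deposited table (median 0.16). PPRC1, a coactivator, had 1007 and 950 normalized counts in siNC and 1241, 1341 and 1430 in siHOTAIR (0.44 on the log2 scale, adjusted p = 6.04e-07, in the authors' deposited table). PPARGC1B, a related coactivator, had 195 and 151 in siNC and 231, 248 and 294 in siHOTAIR (0.55 on the log2 scale, adjusted p = 0.00109, in the authors' deposited table). TFAM, which packages mitochondrial DNA, had 570 and 556 in siNC and 721, 718 and 677 in siHOTAIR (0.32 on the log2 scale, adjusted p = 0.00156, in the authors' deposited table). TFB1M, a methyltransferase of the mitochondrial ribosome, had 124 and 129 in siNC and 77.1, 69.6 and 84.5 in siHOTAIR (-0.69 on the log2 scale, adjusted p = 0.00132, in the authors' deposited table).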
